A study of Mus musculus with 11 samples.

Results

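RNA of the Id genes Id1, Id2 and Id3 and of their E protein partner genes Tcf3 and Tcf12 was followed in 11 libraries of mouse bone marrow cells, in 7 groups. These 5 genes were taken by symbol from the 23444 rows of the deposited gene table. Levels are in FPKM, which counts fragments relative to transcript length and to the size of the library, so levels of different genes can be set side by side. All 5 genes were among the 11442 that reached 1 FPKM in 2 or more libraries, and the lowest value of any of them in any library was 2.45 FPKM.

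E proteins such as E2A (encoded by Tcf3) and HEB (encoded by Tcf12) are helix-loop-helix transcription factors that bind E-box sites as pairs, with each other or with tissue-restricted partners such as Tal1. Id proteins carry the helix-loop-helix pairing domain but lack the basic region that contacts DNA, so an E protein held by an Id protein does not bind its sites. In bone marrow, E proteins are known for driving lymphoid development. Id2 is known for its need in natural killer and innate lymphoid cells, and Id1 as a target of BMP and cytokine receptor signalling in immature myeloid cells.

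The cells were C57BL/6 bone marrow cells selected for Kit with CD117 beads and kept for 12 h in stem cell factor, IL-3, IL-6 and FLT3 before transduction. BCR/ABL is the fusion kinase of chronic myeloid leukaemia. It was given on a retrovirus with a yellow fluorescent marker, and marker-positive cells were sorted. Wild-type BCR/ABL cells were treated for 4 h with imatinib plus DFC+BCI (2 libraries), with DFC+BCI (2 libraries) or with imatinib (2 libraries), or were untreated (2 libraries). Imatinib inhibits the BCR/ABL kinase. DFC was used against c-Fos and BCI against the phosphatase Dusp1, and whether they act on these targets alone was not tested. Cells of ROSACreERT2 c-Fos fl/fl Dusp1-/- mice that carried BCR/ABL, titled c-Fos-/-Dusp1-/-, gave 1 library with imatinib and 1 without. The remaining group is 1 vector control. The sources used here name neither its construction nor any step that induces the Cre. Doses are not given because their unit is in doubt. The labels call the treatments duplicates without naming separate animals, so p-values measure the spread between these libraries, which may be technical.

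In the library labelled deleted with imatinib, Fos was at 15.9 and Dusp1 at 28.1 FPKM, and in the untreated library labelled deleted they were at 21.6 and 35.7 FPKM. Both were lower in the untreated wild-type BCR/ABL libraries, with Fos at 5.09 and 4.81 and Dusp1 at 8.22 and 8.46 FPKM. With DFC+BCI, with or without imatinib, Fos was at up to 32.4 FPKM and Dusp1 at 101.9 to 132.8 FPKM. With imatinib alone Fos was at 6.79 and 7.42 FPKM and Dusp1 at 7.56 and 8.63 FPKM, and the vector library had 124.9 FPKM of Fos and 16.9 FPKM of Dusp1. A value per gene does not show which exons the RNA came from, and those libraries are called labelled deleted throughout. All 8 Kit+ stem and progenitor markers were found, and neutrophil markers were abundant: they summed to 13783.7 to 24930.5 FPKM in BCR/ABL libraries and to 2488 FPKM in the vector library. B cell markers summed to at most 20.3 FPKM, T and NK cell markers to at most 1.21 FPKM, and stromal and endothelial markers to at most 3.55 FPKM. In bulk RNA, fewer cells of a type and less RNA per cell cannot be told apart.

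The coding stretch below lies in the first coding exon of each Id gene and covers most of the helix-loop-helix domain, the part that pairs with E proteins. It is shown because it is what the 3 Id genes have in common. The letters are from GENCODE vM21 transcripts (GRCm38), and capitals mark bases that are the same in all 3 genes. The stretches lie at chr2:152736512-152736637 (+ strand) for Id1, chr12:25095783-25095908 (- strand) for Id2 and chr4:136143996-136144121 (+ strand) for Id3.
Id1: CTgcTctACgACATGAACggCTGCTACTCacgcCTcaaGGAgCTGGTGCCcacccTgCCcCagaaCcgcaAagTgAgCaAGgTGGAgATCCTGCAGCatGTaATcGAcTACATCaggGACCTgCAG
Id2: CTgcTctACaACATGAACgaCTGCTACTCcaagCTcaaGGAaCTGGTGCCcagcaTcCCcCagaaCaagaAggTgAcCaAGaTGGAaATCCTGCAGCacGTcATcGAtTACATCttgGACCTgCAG
Id3: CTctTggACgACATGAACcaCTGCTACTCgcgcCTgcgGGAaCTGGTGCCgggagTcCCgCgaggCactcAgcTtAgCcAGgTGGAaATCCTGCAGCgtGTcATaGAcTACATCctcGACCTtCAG
Of the bases shown, 80 (63.5%) were identical in all 3 genes. Id1 and Id2 matched at 82.5% of the bases, Id2 and Id3 at 70.6% and Id1 and Id3 at 69.8%. Even so, the longest unbroken run shared by any pair of the 5 genes' transcripts was 19 bases, between Id2 and Id3. The sources used here do not give the read length.

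The whole genes lie at chr2:152736251-152737410 (Id1), chr12:25093799-25097140 (Id2), chr4:136143497-136145755 (Id3), chr10:80409514-80433647 (Tcf3) and chr9:71842688-72111871 (Tcf12) in GRCm38. Tcf12 spans 11 other annotated loci, some on its own strand, so its value is less certain than those of the other members, which overlap no annotated gene. RefSeq promoter windows (GRCm38.p6, 250 bases before to 50 after a start site) matched 4 of the 5 members (all but Id1), in 6 windows. They were searched on both strands for CANNTG (the E-box bound by E proteins), TTCNNNGAA (STAT), TGANTCA (AP-1), GGCGCC (SMAD1/5), CCGGAAG (ETS) and TGACGT (CREB/ATF). The Id2 window held 1 E-box and 1 GGCGCC match and none of the other motifs. Its part outside annotated exons, at chr12:25096254-25096342 (- strand), is printed with both matches in capitals, GGCGCC at position -231 and the E-box CAGCTG at position -196 from the start site, which do not overlap. This stretch lies inside the annotated Id2 gene but outside its exons, so in that annotation it is intron sequence. The start site used is not the outermost one, and the word promoter refers to that site only.
Id2 promoter: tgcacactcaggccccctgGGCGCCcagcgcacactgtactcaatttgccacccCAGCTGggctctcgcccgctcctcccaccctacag
Among 32817 windows of that length, 72.3% held an E-box and 11.9% held GGCGCC. The Id3 window, which also lies inside its annotated gene, held none of the 6 motifs. The Tcf3 window held 1 E-box and 1 CCGGAAG match, which 8.86% of all windows held. Every Tcf12 window held an E-box, and the one at chr9:72111152-72111451 also held 1 TGANTCA match, which 7.81% of all windows held. These matches are descriptions of letters and are not evidence of binding.

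Id2 was the most abundant Id RNA in every library, and the 3 Id genes differed in which condition moved them. Id1 was high in BCR/ABL cells without imatinib. Id2 was low wherever DFC+BCI was present, and Id3 was high there. The E protein genes varied least: the highest library stood 1.63 times above the lowest for Tcf3 and 1.41 times for Tcf12, against 8.25 times for Id1, 6.88 times for Id3 and 3.2 times for Id2.

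**Figure D1:**
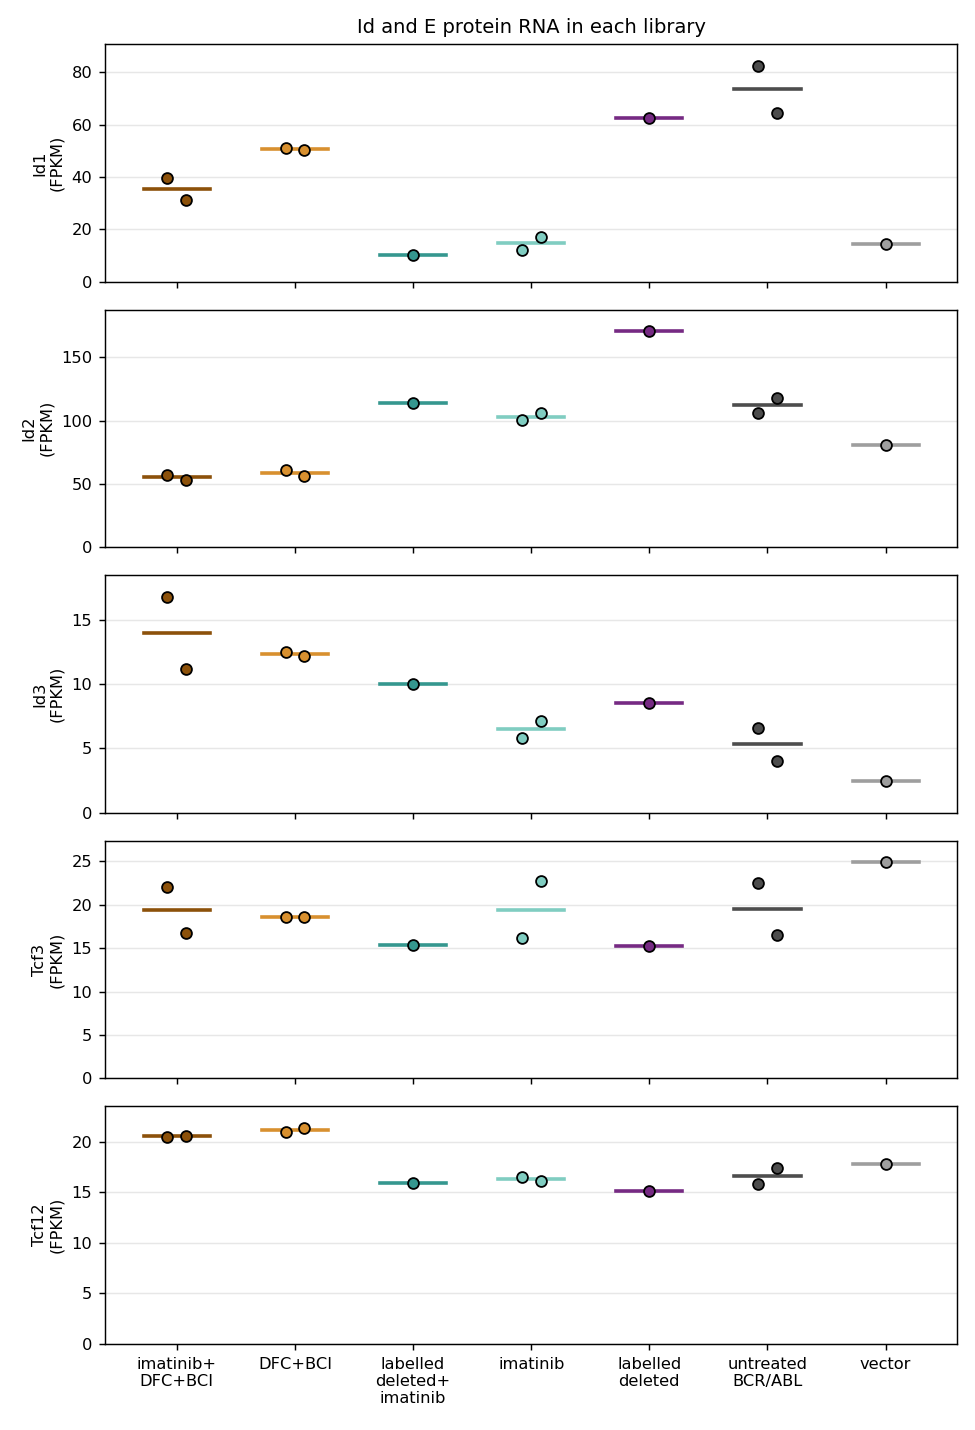
Level (FPKM, axis from 0) of Id1, Id2, Id3, Tcf3 and Tcf12 in each library, by group; points are libraries and lines are group means. Id1 in the 2 imatinib libraries (12.2 and 17.2) sits far below the 2 untreated libraries (82.5 and 64.4), while Id2 is lowest and Id3 highest in the libraries with DFC+BCI.

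Imatinib alone was compared with no treatment to ask which of these genes changed with the drug. Id1 was at 12.2 and 17.2 FPKM with imatinib, against 82.5 and 64.4 FPKM in untreated BCR/ABL cells. The groups did not overlap, and every imatinib library lay below every untreated one. With 2 libraries on each side such a separation is easily reached, and the share of all genes with it was not counted. Id1 fell by 2.25 on the log2(FPKM + 1) scale (SE 0.184, adjusted p = 0.00239, limma), which was the 16th largest change by size among 11442 genes. It was 1 of 5 members called, where 2.11% of all genes were called (1.63% lower and 0.481% higher).

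No other member passed the test after imatinib. Id2 averaged 103.3 ± 4.04 FPKM with imatinib and 112.0 ± 8.75 FPKM untreated (SD, n = 2 each), a log2 difference of -0.11 (95% interval -0.3 to 0.07, adjusted p = 0.608, limma). Id3 averaged 6.49 ± 0.949 FPKM with imatinib and 5.33 ± 1.81 FPKM untreated (SD, n = 2 each), and its interval reached from -0.27 to 0.81. For Tcf3 the log2 difference was -0.01 (95% interval -0.48 to 0.46), and for Tcf12 it was -0.02 (95% interval -0.18 to 0.13). The SE of the Tcf3 difference was 0.199 as deposited and 0.0722 after a correction for GC content, chosen after seeing the data, with the same difference of -0.01.

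The same contrast exists in the cells labelled deleted, with 1 library each and therefore no test. Id1 was at 10.0 FPKM with imatinib and 62.5 FPKM without, a log2 difference of -2.53, beside -2.25 in wild-type cells; whether these differ was not tested. With a single library, a gene was called where it had 5 FPKM or more in the higher group and a log2 difference of 1 or more from each library of the other. By that rule 0.376% of all genes were called (0.105% higher and 0.271% lower), and Id1 was 1 of them. Id2 differed by -0.58, Id3 by 0.2, Tcf3 by 0.01 and Tcf12 by 0.07 on the log2 scale, none of which reached the rule.

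DFC+BCI lowered Id2 and raised Id3 and Tcf12. Id2 was at 60.6 and 56.1 FPKM with DFC+BCI, against 105.8 and 118.2 FPKM in untreated cells. Id3, the least abundant member, was at 12.5 and 12.2 FPKM with DFC+BCI, against 6.61 and 4.05 FPKM untreated. Tcf12 was at 21.0 and 21.4 FPKM with DFC+BCI, against 15.8 and 17.4 FPKM untreated. In each of these 3 genes the groups did not overlap, which 2 libraries on each side easily reach. The share of all genes with such a separation was not counted.

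On the log2 scale Id2 fell by 0.93 (SE 0.078, adjusted p = 0.000205), Id3 rose by 1.11 (SE 0.23, adjusted p = 0.00922) and Tcf12 rose by 0.33 (SE 0.065, adjusted p = 0.00711), all by limma. The background is broad: 36.3% of all genes were called in this contrast (17.8% higher and 18.4% lower), so 3 of 5 members called is no result about the members. Id1 was at 51.0 and 50.2 FPKM with DFC+BCI, against 82.5 and 64.4 FPKM untreated, and its log2 difference of -0.52 did not pass (adjusted p = 0.0632, limma). That value lies near the threshold: over 18 alternatives its adjusted p was 0.0109 to 0.27, and 7 put it past. Leaving out imatinib library a (0.0359), imatinib library b (0.0363) or the second untreated library (0.0478) was enough. The Id3 call was lost without DFC+BCI library a (adjusted p = 0.0569, range over 18 alternatives 0.000609 to 0.0569). Tcf3 was at 18.6 FPKM in both DFC+BCI libraries, inside the range of 16.5 to 22.5 FPKM of the untreated ones.

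With imatinib plus DFC+BCI, Id2, Id3 and Tcf12 stood on the same side of untreated cells as with DFC+BCI alone, and Id1 stood between its levels with DFC+BCI and with imatinib. Id1 was at 39.5 and 31.1 FPKM with all 3 drugs. With all 3 drugs Id2 was at 57.1 and 53.4 FPKM, Id3 at 16.8 and 11.2 FPKM and Tcf12 at 20.5 and 20.6 FPKM.

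Against untreated cells, 4 of 5 members were called with all 3 drugs, where 32.8% of all genes were called (17.2% higher and 15.6% lower). Id1 fell by 1.03 (adjusted p = 0.00534), Id2 fell by 1.01 (adjusted p = 0.000139), Id3 rose by 1.25 (adjusted p = 0.00606) and Tcf12 rose by 0.29 (adjusted p = 0.0133) on the log2 scale, by limma. The contrasts against untreated cells share those 2 untreated libraries and are therefore not separate evidence. Tcf12 missed the threshold when any 1 of 3 libraries was left out (both libraries with all 3 drugs in turn, and the first untreated library), with an adjusted p of 0.0585, 0.0682 and 0.0583 (range over 18 alternatives 0.002 to 0.0682).

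Against imatinib alone, adding DFC+BCI raised Id1, Id3 and Tcf12 and lowered Id2, where 34.6% of all genes were called (18.6% higher and 16.0% lower). Id1 rose by 1.22 on the log2 scale (SE 0.184, adjusted p = 0.00256, limma), so that it was 2.32-fold higher with all 3 drugs than with imatinib. Id3 rose by 0.99 (adjusted p = 0.015), Tcf12 rose by 0.32 (adjusted p = 0.00924) and Id2 fell by 0.89 (adjusted p = 0.000235), all by limma. The Id3 call was lost without library a of the 3 drugs (adjusted p = 0.0749) or without library a of imatinib (adjusted p = 0.0788, range over 18 alternatives 0.00165 to 0.0788). The Tcf12 call was lost without library b of the 3 drugs (adjusted p = 0.0513, range 0.00118 to 0.0513).

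Against DFC+BCI alone, adding imatinib changed no member past the threshold, where 0.114% of all genes were called (0.00874% higher and 0.105% lower), and 1 of 5 members and 9.2% of all genes had an unadjusted p under 0.05. For Id1 the log2 difference was -0.52 (95% interval -0.95 to -0.08, unadjusted p = 0.0255, adjusted p = 0.491, limma). Its libraries were at 39.5 and 31.1 FPKM with all 3 drugs, against 51.0 and 50.2 FPKM with DFC+BCI. The intervals of the other members were -0.26 to 0.11 for Id2, -0.39 to 0.69 for Id3, -0.42 to 0.52 for Tcf3 and -0.19 to 0.11 for Tcf12.

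Id1 thus had a log2 difference of -0.52 with imatinib when DFC+BCI was present and of -2.25 when it was absent. The test of that difference, the interaction term, gave 1.74 (SE 0.26, 95% interval 1.12 to 2.35, unadjusted p = 0.000249) and missed the threshold over all genes (adjusted p = 0.0754, limma). Of all genes, 0.149% passed it (0.0874% higher and 0.0612% lower). Id1 ranked 29th by size and 36th by p among 11442 genes, and it passed in 1 of 17 alternatives, a correction for GC content chosen after seeing the data (1.66, adjusted p = 0.00783, range over the alternatives 0.00783 to 0.351). No other member came near it: Id2 had 0.04, Id3 had -0.12, Tcf3 had 0.06 and Tcf12 had -0.02.

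**Figure D2:**
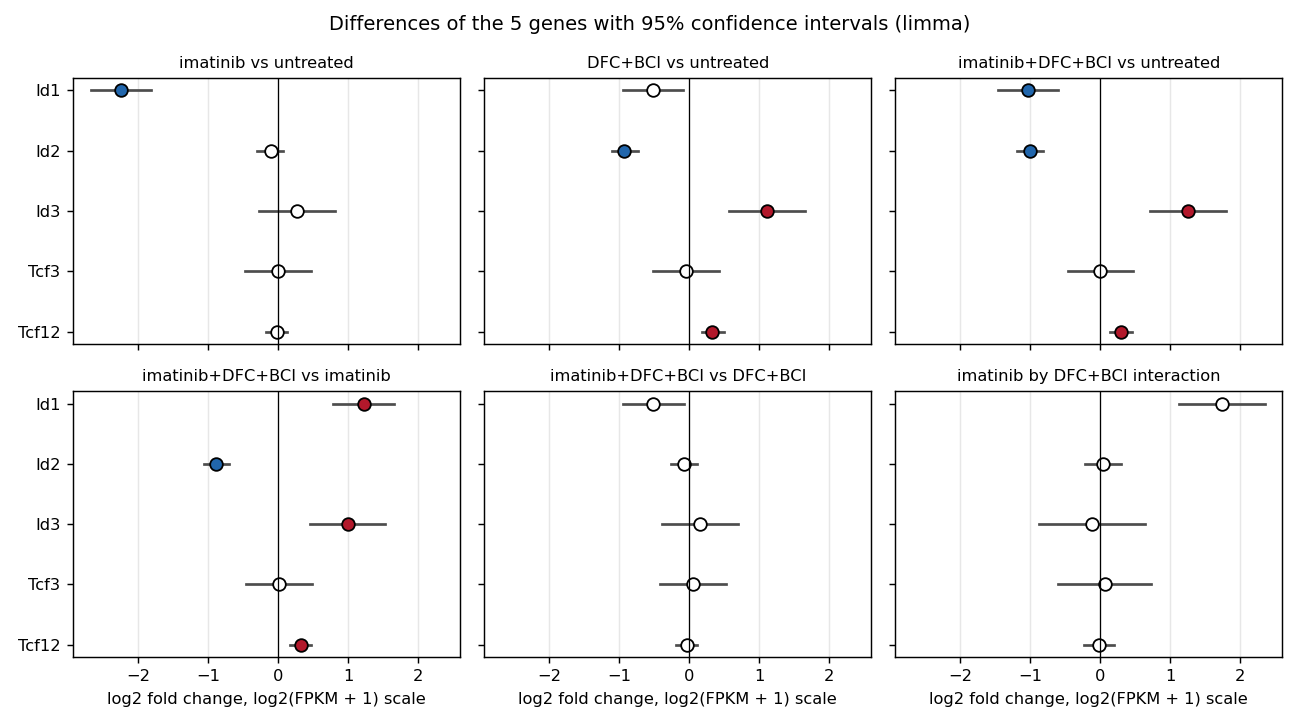
Log2 fold change (log2(FPKM + 1) scale) of each member in the 6 comparisons of replicated groups, with 95% confidence intervals from limma; filled points passed an adjusted p of 0.05 (blue lower, red higher), open points did not. Id1 is 2.25 lower with imatinib, while Id2, Id3 and Tcf12 move in the panels where DFC+BCI is added, and every Tcf3 interval spans 0.

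Summed levels of some cell markers moved with DFC+BCI as well. The 8 Kit+ stem and progenitor markers summed to 363.8 to 411.2 FPKM in the 4 libraries with DFC+BCI, against 601 to 631.7 FPKM in the imatinib and untreated wild-type libraries. The 8 measured neutrophil markers (of 9) summed to 13783.7 to 14870.7 FPKM with DFC+BCI, against 22450.2 to 24930.5 FPKM in the same others. These sums mostly follow their most abundant genes. Ly6a averaged 283.8 FPKM with DFC+BCI and 490.6 FPKM untreated, and S100a8 averaged 6854.4 and 11916.4 FPKM. Ngp was at 1473.2 and 2161.0 FPKM, but Ltf (253.3 and 298.4), Camp (169.5 and 184.7) and Mmp9 (14.5 and 16.3) moved less. The part of these cell markers in the Id2, Id3 and Tcf12 differences was not tested.

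BCR/ABL was set against the vector control, where 1 vector library leaves no test. Id1 was at 82.5 and 64.4 FPKM in untreated BCR/ABL cells and 14.3 FPKM in the vector library, a log2 difference of 2.27 (2.09 to 2.45 over the 2 libraries). It was the only member past the fold rule, where 8.01% of all genes were called (3.32% higher and 4.68% lower). With imatinib, Id1 in BCR/ABL cells was at 12.2 and 17.2 FPKM. These values lay on either side of the 14.3 FPKM of the 1 vector library, with a log2 difference of 0.02. Here 6.97% of all genes were called (2.53% higher and 4.43% lower) and no member was. Id3 was at 5.82 and 7.16 FPKM with imatinib and 2.45 FPKM with the vector, and missed the rule by a little (differences of 0.98 and 1.24); without imatinib library a it passed, as it did in untreated cells without the second untreated library (1.14).

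Tcf3 was at 22.5 and 16.5 FPKM in untreated BCR/ABL cells and 24.9 FPKM in the vector library, and Tcf12 at 15.8 and 17.4 FPKM in untreated BCR/ABL cells and 17.8 FPKM with the vector. The vector library differs in cell markers: neutrophil markers summed to 22450.2 and 23719.6 FPKM in untreated BCR/ABL cells and to 2488 FPKM with the vector, and mast cell and basophil markers (6 of 6) to 519.6 and 538.9 FPKM in untreated BCR/ABL cells and to 2074.2 FPKM with the vector. Their part in the Id1 difference was not tested.

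The untreated library labelled deleted had the highest value of any member in any library, 170.7 FPKM of Id2, against 105.8 and 118.2 FPKM in untreated wild-type BCR/ABL cells. The median gene was 0.13 lower on the log2 scale in that library, and the Id2 difference was 0.61 as deposited and 0.78 after median-of-ratios scaling. Neither reached the fold rule, by which 5.44% of all genes were called (3.42% higher and 2.02% lower) and no member was. Id3 was at 8.56 FPKM in the library labelled deleted, against 6.61 and 4.05 FPKM in untreated wild-type cells. Id1 was at 62.5 FPKM in the library labelled deleted, against 82.5 and 64.4 FPKM in untreated wild-type cells.

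With imatinib, the library labelled deleted had Id1 at 10.0 FPKM, against 12.2 and 17.2 FPKM in imatinib-treated wild-type cells. Its Id2 was at 114.2 FPKM, against 100.4 and 106.1 FPKM in those wild-type cells, and its Id3 at 10.0 FPKM, against 5.82 and 7.16 FPKM in them. No member was called, and 3.16% of all genes were (1.88% higher and 1.28% lower). Tcf3 was at 15.4 FPKM with imatinib and 15.2 FPKM without in the libraries labelled deleted, against 16.2 to 22.7 FPKM in the wild-type libraries with imatinib or untreated. After median-of-ratios scaling the Tcf3 differences were -0.21 and -0.16, and those of Tcf12 were 0.06 and 0.04. Mast cell and basophil markers summed to 115.6 and 84.4 FPKM in the 2 libraries labelled deleted, against 442.6 to 583.4 FPKM in the wild-type BCR/ABL libraries, and their part in these values was not tested.

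Levels can be ordered per gene by group mean, where neighbours that overlap in their libraries are not told apart. A lack of overlap is easily reached with 1 or 2 libraries per group, and the share of all genes with it was not counted. For Id1 the order was untreated, labelled deleted, DFC+BCI, 3 drugs, imatinib, vector and labelled deleted with imatinib, and as deposited only imatinib and vector overlapped. The library labelled deleted lay only 0.04 below the nearer untreated library on the log2 scale, where the median gene was 0.13 lower, so these 2 groups are not told apart either. For Id2, labelled deleted with imatinib, untreated and imatinib overlapped in turn, between labelled deleted above and vector below, and the 2 groups with DFC+BCI overlapped at the bottom. For Id3 the 2 groups with DFC+BCI overlapped at the top, and imatinib and untreated overlapped above the vector at the bottom. For Tcf3 the 4 replicated wild-type groups overlapped, and for Tcf12 the 2 groups with DFC+BCI stood above all others.

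Summed Id RNA was set against summed E protein RNA in each library, as a description with no test. The ratio of Id1, Id2 and Id3 to Tcf3 and Tcf12 was 2.66 and 2.56 with the 3 drugs, 3.13 and 2.97 with DFC+BCI and 3.62 and 3.37 with imatinib, against 5.09 and 5.49 in untreated cells. In the libraries labelled deleted it was 4.29 with imatinib and 7.96 without, and the vector library had 2.29. Every treated wild-type library thus lay below both untreated ones. The makeup differed, since Id1 gave 10.3% and 13.2% of the Id RNA with imatinib and 32.5% to 42.3% in the libraries with DFC+BCI and 34.5% and 42.3% in untreated cells. Ratios of RNA do not show ratios of protein.

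**Figure D3:**
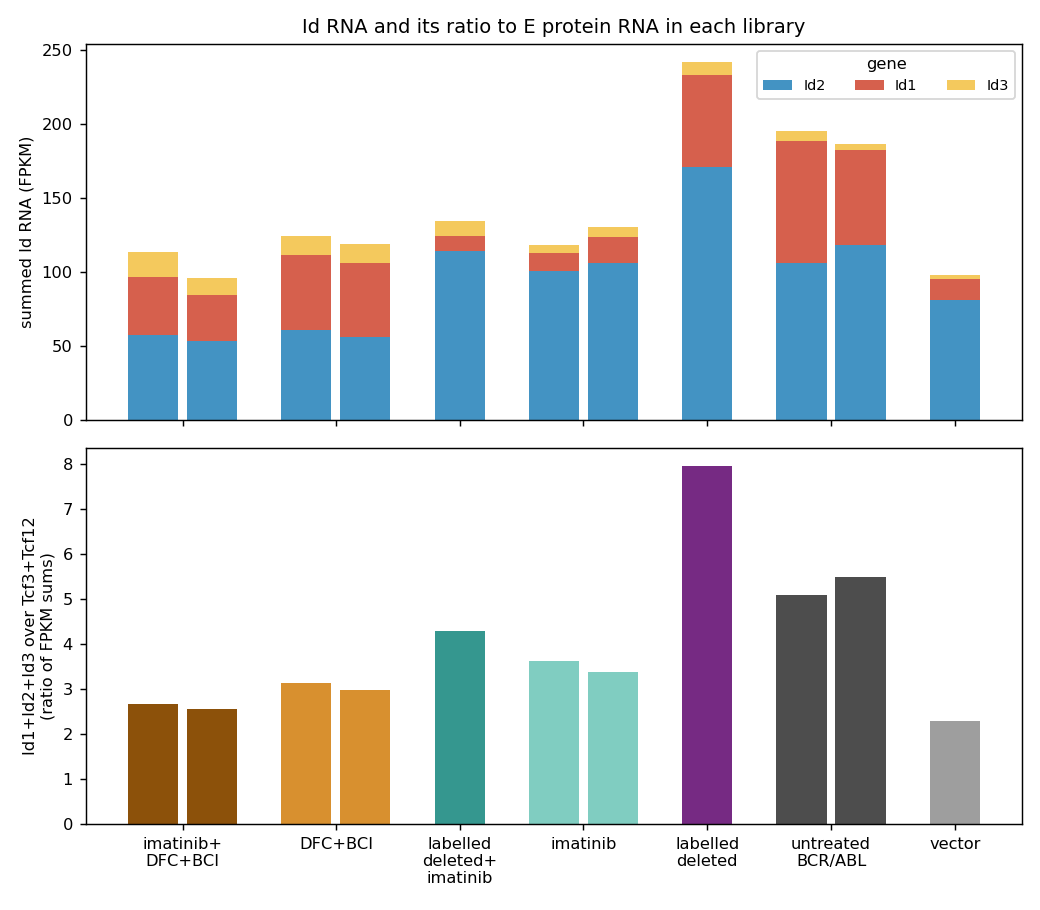
Summed FPKM of Id2, Id1 and Id3 (stacked, upper panel) and the ratio of summed Id to summed Tcf3 and Tcf12 FPKM (lower panel) in each library, by group. The ratio is 2.56 to 3.62 in the treated wild-type libraries, 5.09 and 5.49 untreated and 7.96 in the library labelled deleted; the Id1 share is smallest with imatinib.

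Genes that act with Id and E proteins were followed from lists chosen with earlier results of these data known. Of 18 tested genes of BMP and TGF-beta signalling (of 23), 8 rose and none fell with DFC+BCI (17.8% of all genes rose), with a median of 0.22 against -0.03 over all genes. Skil, a corepressor of SMAD proteins, rose by 1.27 (adjusted p = 8.98e-05) and Acvr2a, an activin receptor, by 1.0 (adjusted p = 0.000271), by limma.

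The other lists held fewer tested genes, and their counts with DFC+BCI stand beside 17.8% of all genes higher and 18.4% lower. Among the helix-loop-helix partners, 3 of 10 were tested. Tal1, an E protein partner in blood cells, fell by 0.55 with DFC+BCI (adjusted p = 0.000686, limma) and averaged 18.7 FPKM, against 27.9 FPKM untreated. Bhlha15 was near the floor, with an average of 1.31 FPKM with DFC+BCI and 0.512 FPKM untreated. It reached 1 FPKM only in libraries with DFC+BCI and passed the filter through them, so its rise of 0.61 is not taken as a result. Among the Hes, Hey and Bhlhe repressors, Bhlhe40 fell by 0.54 with imatinib (adjusted p = 0.0069, limma) and rose by 0.53 with DFC+BCI (adjusted p = 0.000694, limma). Bhlhe41 rose by 0.71 with DFC+BCI, so 2 of 4 tested rose and none fell. Of 12 tested E protein cofactors, 4 rose and 1 fell with DFC+BCI, a share near the 36.3% of all genes called, and Crebbp, a histone acetyltransferase, rose by 0.62 (adjusted p = 0.000418, limma).

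Among proteins that set the life of Id proteins, 1 of 5 passed with DFC+BCI (36.3% of all genes did): Wdr48, a partner of the deubiquitinase Usp1, fell by 0.29 (adjusted p = 0.00873, limma). Of 6 tested partners of Id proteins outside the family, 3 fell with DFC+BCI and none rose, where 18.4% of all genes fell. They were Rbl2 by 0.23 (adjusted p = 0.0493), Elk3 by 0.21 (adjusted p = 0.0355) and Rbl1 by 0.2 (adjusted p = 0.0431), by limma. All 3 calls lie near the threshold. With the 3 drugs against untreated cells 1 of these 6 fell, where 15.6% of all genes fell. Of 17 E protein target genes only 6 passed the filter on low values. With DFC+BCI, 2 of those rose, namely Foxo1 by 1.01 (adjusted p = 0.00013) and Cdkn1a, an inhibitor of the cell cycle, by 0.75 (adjusted p = 0.000645), by limma, and none fell, where 17.8% of all genes rose. With the 3 drugs 3 of the 6 rose and 1 fell against untreated cells, where 17.2% of all genes rose and 15.6% fell. Against imatinib 3 rose and 2 fell, where 18.6% of all genes rose and 16.0% fell. Il7r, a cytokine receptor gene, fell by 0.64 against untreated cells (adjusted p = 0.0103, limma) and by 0.71 against imatinib (adjusted p = 0.00634, limma). The lymphoid targets Rag1, Rag2, Igll1 and Vpreb1 averaged under 1 FPKM in every group, but not every target on the list did. Dntt was at 16.4 FPKM in the vector library and averaged 0.0415 FPKM in untreated BCR/ABL cells. It was below the filter and was not tested. Il7r averaged above 1 FPKM in every group and was highest, at 78.7 FPKM, in the untreated library labelled deleted. Over all genes the median log2 difference with DFC+BCI was -0.03; it was -0.09 for the helix-loop-helix partners, 0.39 for the Hes, Hey and Bhlhe repressors, 0.01 for the cofactors, -0.2 for the turnover genes, -0.19 for the partners outside the family and 0.1 for the target genes.

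Genes with the most similar pattern were sought over the 7 group means among 8880 genes, as a description over few points. For Id1 they were Snap29 (r = 0.94), Socs1 (r = 0.923) and Hsd17b7 (r = 0.916). Socs1, a feedback inhibitor of cytokine receptor kinases, averaged 15.8 FPKM with the 3 drugs, 35.6 with DFC+BCI and 15.5 with imatinib, against 72.0 FPKM untreated and 7.24 FPKM with the vector. For Id2 they were Snx27 (r = 0.987), Nubpl (r = 0.987) and Stx12 (r = 0.983), and for Id3 they included Fam46c (r = 0.985) and Gtf2a1 (r = 0.982). Those for Tcf3 were Cd37 (r = 0.997), Nnt (r = 0.994) and Scd1 (r = 0.994), and those for Tcf12 were Gpank1 (r = 0.995), Atad2b (r = 0.995) and Nfxl1 (r = 0.994).

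Libraries of 1 group differed in a way that followed base composition. In the pairs with the 3 drugs, with imatinib and without treatment, the difference between the 2 libraries correlated with transcript GC across 10850 genes (Spearman 0.431, 0.6 and 0.654), and in the DFC+BCI pair it did so weakly (-0.119). Id1, Id3 and Tcf3, whose longest transcripts have 54.7%, 55.6% and 61.0% GC, were higher by 0.26 to 0.59 on the log2 scale in the library of each of those 3 pairs with the higher total. Id2 (45.1% GC) and Tcf12 (44.4% GC) differed by -0.16 to 0.09. After a correction for GC, chosen after seeing the data, Id1 was at 13.1 and 16.6 FPKM with imatinib, against 77.6 and 68.1 FPKM untreated.

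**Figure D4:**
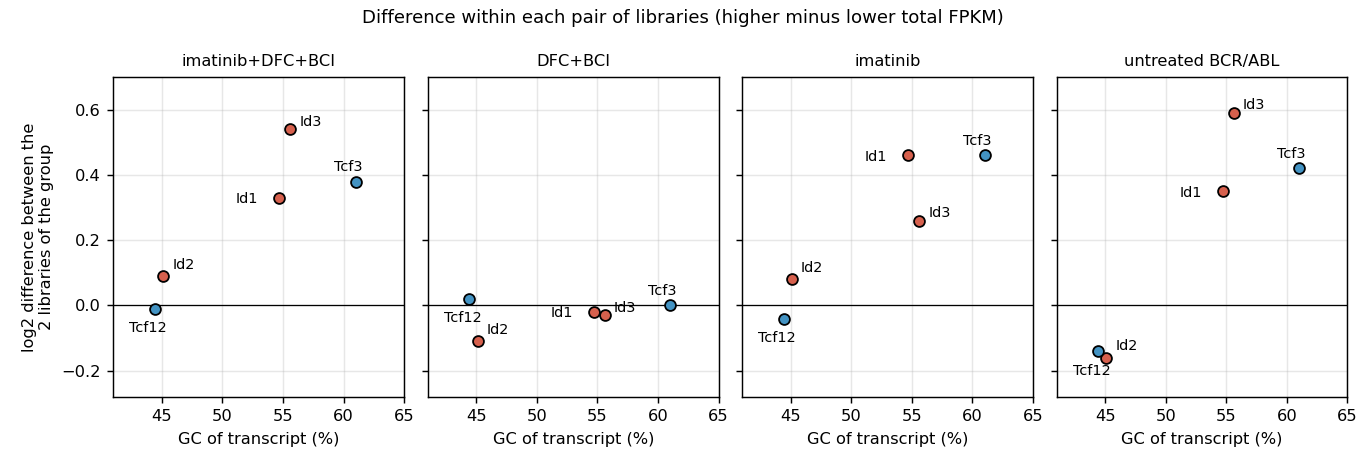
Log2 difference between the 2 libraries of each replicated group (higher minus lower total FPKM) for each member, against the GC content (%) of its longest transcript; red points are Id genes and blue points E protein genes. Id1, Id3 and Tcf3 lie at 0.26 to 0.59 in every pair except DFC+BCI, where all 5 members lie between -0.11 and 0.02.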

How the data were processed

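The deposited table holds 1 value per gene and library for 11 libraries. Per the submitters' processing notes, TopHat, Cufflinks and mm10 were used, with no versions named. The deposited values are treated as FPKM because of their form, since no header names a unit. Column totals were 459559 to 529427 FPKM, 5019 rows were 0 throughout, 27 symbols had become dates, and low values showed no shared step, so depth is unknown. All columns were mapped to a group, and 0 were left unused. Column letters do not match the labels' replicate numbers.

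Values were analysed as log2(FPKM + 1), which understates changes of low genes, in R 4.3.3 by limma 3.58.1 (trend on, 11442 genes, all 11 libraries, 1 coefficient per group, 4 residual and 3.2 prior degrees of freedom, 2-sided, Benjamini-Hochberg, adjusted p under 0.05). The fit was tested on simulated data with independent noise for each gene, so that test does not cover the differences between libraries that follow GC. Comparisons with 1 library have a fold rule and no p. GC came from the longest GENCODE vM21 transcript. Members and lists were chosen with earlier results of these data known. Up to 3 called genes per list and comparison were eligible for naming, by size of change, and the 3 genes most like each member by correlation of group means; some of these are not reported here. Alternatives were scaling, filters, pseudocounts, fits and leaving out each library.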

Additional observations from a re-analysis of the deposited data

How the results depend on the processing

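No paired analysis was possible because the columns carry no replicate number from the labels: letters a and b head the columns of 3 of the 4 replicated groups, and no source says that they pair libraries. Of the members' tested values under the alternatives, 518 kept their side of the threshold, 9 lost their call and 8 gained one. No called value changed sign, but uncalled values near 0 did: Tcf3 kept its sign with imatinib in 14 of 18 alternatives, and Id2 in the interaction in 11 of 17. The calls of Id1 with imatinib, of Id2 in its 3 called comparisons, of Id1 with the 3 drugs (against untreated or imatinib), of Tcf12 with DFC+BCI and of Id3 with the 3 drugs against untreated held in all 18 alternatives. Besides the losses named with the results, Tcf12 with the 3 drugs against untreated was lost in a fit of only those groups (adjusted p = 0.0544) and Id3 against imatinib with no filter (0.0521); the cause was not tested.

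Genes called with imatinib numbered 241, and 122 with no filter, 49 in a fit of only the groups compared and 644 (231 higher, 413 lower) after GC correction, against 55 higher and 186 lower. Against DFC+BCI alone, 13 became 20 in a fit of only those groups and 66 after GC correction. Against imatinib, the 3 drugs gave 2127 higher and 1828 lower, and 1829 and 2187 with quantile normalization. The interaction had 17, and 2 with no filter, 11 with median-of-ratios scaling (8 higher, 3 lower, against 10 and 7), 11 with quantile normalization, 7 with no variance trend and 125 after GC correction, which called 1 member. At a fold limit of 0.5, the lone-library comparisons called 2781 genes and 2 members (BCR/ABL against vector), 2515 and 1 (imatinib-treated against vector), 2447 and 1 (labelled deleted against untreated), 1368 (labelled deleted with imatinib against imatinib) and 296 and 2 (labelled deleted with imatinib against without). Imatinib-treated against vector also had 1 member with a pseudocount of 0.1 and with quantile normalization. The Id to E ratio with Id1 and Id3 only was 1.23 (3 drugs), 1.58 (DFC+BCI), 0.639 (labelled deleted with imatinib), 0.59 (imatinib), 2.34 (labelled deleted), 2.17 (untreated) and 0.393 (vector).

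With 1 library left out, where a lone library is assumed to vary like the others, genes called ranged from 56 to 118 (imatinib), 2132 to 4002 (DFC+BCI, lowest without DFC+BCI library a with 1265 higher and 867 lower against 2041 and 2107, and 2526 without b), 2319 to 3596 (3 drugs against untreated, lowest without 3-drug library b, and 2469 without a), 2555 to 4017 (3 drugs against imatinib, lowest without 3-drug library b, and 2565 without imatinib library a), 1 to 7 (3 drugs against DFC+BCI) and 2 to 12 (interaction). Members called ranged from 1 to 2 for BCR/ABL against vector and from 0 to 1 for imatinib-treated against vector. The cause of these shifts was not tested. Precision is limited by 2 libraries per group and by unknown depth.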
